A study of Oryza sativa with 6 samples.

Results

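The SPL and GRF genes of rice encode plant-specific transcription factors that set the size and number of leaves, tillers, panicle branches and grains. The 31 genes described here are SPL1 to SPL19 and GRF1 to GRF12, taken from a count table of 55986 gene models by their locus identifiers. They were compared between Balilla-2x, a diploid line of Oryza sativa ssp. japonica (2n = 24), and Balilla-4x, a tetraploid (2n = 48) made from that diploid by chromosome doubling. Both lines were grown under the condition labelled normal in a paddy field in Shanghai, leaves were taken at 4 weeks, and total RNA of each line was sequenced in 3 libraries. Balilla-4x descends from an artificial doubling of a single variety, so the comparison is of this pair of lines. Whether each library came from its own plant is not labelled, and the p-values therefore reflect only variation among the deposited libraries, which could be technical.

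SPL proteins bind DNA through the SBP domain, and GRF proteins through the WRC domain while the QLQ domain recruits a coactivator of the GIF family. Most SPL transcripts carry a site for microRNA156, which is abundant in young plants and declines with age, so that SPL transcripts accumulate as the shoot matures. GRF transcripts carry a site for microRNA396, and both microRNAs cut their targets or block their translation. In rice the families include well-known yield genes, among them SPL14 (IPA1), SPL16 (GW8), SPL13 (GLW7) and GRF4 (GS2).

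Library totals ran from 16738447 to 18106962 counts. The lines separated along the main axis of variation, which held 74.4% of the variance in log2 CPM. Correlations across genes were 0.971 to 0.984 within lines and 0.886 to 0.922 between them. CPM is the count relative to the library total after scaling between libraries. Levels are given as CPM when a gene is compared between lines, and as the authors' FPKM, which also divides by gene length, when genes are compared with each other. A count of 3 corresponded to 0.170 to 0.178 CPM, and a gene below that is close to the limit of these libraries. The leaf label was not checked against leaf marker genes, because the tables used here do not pair the other identifiers with names. Leaves hold several cell types, and fewer cells of a type cannot be told apart from less RNA per cell.

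Of the 31 members, 26 had at least 1 count and 19 were abundant enough to be tested, namely 14 of 19 SPL genes and 5 of 12 GRF genes. In the tetraploid 5 members rose and 0 fell (edgeR quasi-likelihood test, adjusted p under 0.05). The risers were SPL2, SPL3, SPL9, SPL12 and GRF8. GRF8 passed the filter on low counts only through the tetraploid libraries, where it is higher, and lost its call in 5 of 13 alternative analyses. SPL18 reached the filter's minimum in 1 Balilla-2x library and 3 Balilla-4x libraries, and SPL13 and GRF3 each in 2 and 3. The share of risers, 26.3% of the tested members, was close to the 26.1% of all 20976 tested genes that changed in either direction. The count is therefore not a result about these families. All 5 calls were higher, while over all genes 12.4% were called higher and 13.7% lower. That balance over all genes depends on the scaling, since 47.4% of the called genes were higher as reported and 57.3% with library totals only. The median log2 fold change was 0.01 over the 14 tested SPL genes, 0.32 over the 5 tested GRF genes and 0.01 over all tested genes. The libraries of the lines did not overlap in 7 tested members (36.8%), against 44.3% of all tested genes. By edgeR with the unfiltered table, 18.2% of 30986 genes changed, and the same 5 members were called.

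**Figure D1:**
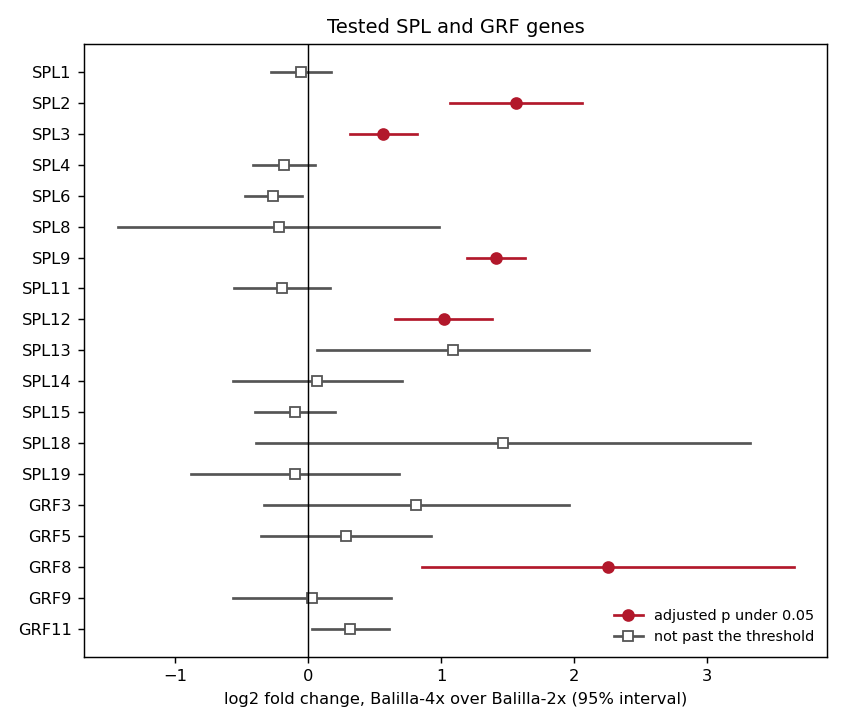
Log2 fold change of the 19 tested members, Balilla-4x over Balilla-2x, with 95% intervals from the edgeR fit (3 libraries per line). SPL2, SPL3, SPL9, SPL12 and GRF8 lie above 0 past the threshold, SPL6, SPL13 and GRF11 have intervals that leave out 0 without passing it after adjustment, and the intervals of SPL8 and SPL18 are the widest among the SPL genes.

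Among SPL genes known without a microRNA156 site, SPL9 rose and the other abundant ones did not pass the test. SPL9 in rice activates the gene of a microRNA, miR528, in antiviral defence, and its relative SPL7 in Arabidopsis is the main regulator of the response to copper shortage. SPL9 lies on chromosome 5 (LOC_Os05g33810). Its level was 88.2, 98.95 and 95.7 CPM in the Balilla-2x libraries and 241, 262 and 249 CPM in the Balilla-4x libraries. Every tetraploid library stood far above every diploid library, and the libraries of a line differed little. The fold change was 2.66 (log2 1.41, SE 0.10, 95% interval 1.19 to 1.63, edgeR adjusted p = 4.06e-05). The coefficient of variation was 5.84% in Balilla-2x and 4.09% in Balilla-4x (n = 3 per line).

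The rise of SPL9 changed the order of levels within the family. Per length, SPL15 and SPL1 led in Balilla-2x with 52.9 ± 4.04 and 48.7 ± 0.642 FPKM (SD, n = 3), and their libraries overlapped. SPL9 stood at 30.3 ± 1.89 FPKM in Balilla-2x and overlapped SPL6 at 27.4 ± 1.99 FPKM (SD, n = 3). In Balilla-4x SPL9 was the most abundant SPL transcript in each library, at 83.95 ± 4.40 FPKM, above SPL15 at 51.5 ± 8.32 and SPL1 at 48.8 ± 4.33 FPKM (SD, n = 3), which again overlapped. SPL9 made up 13.2% to 15.3% of the summed SPL FPKM in Balilla-2x libraries and 27.7% to 30.9% in Balilla-4x libraries. The ratio of SPL9 to SPL1 within a library, which no scaling between libraries can move, was 0.576, 0.646 and 0.644 in Balilla-2x and 1.502, 1.90 and 1.79 in Balilla-4x.

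**Figure D2:**
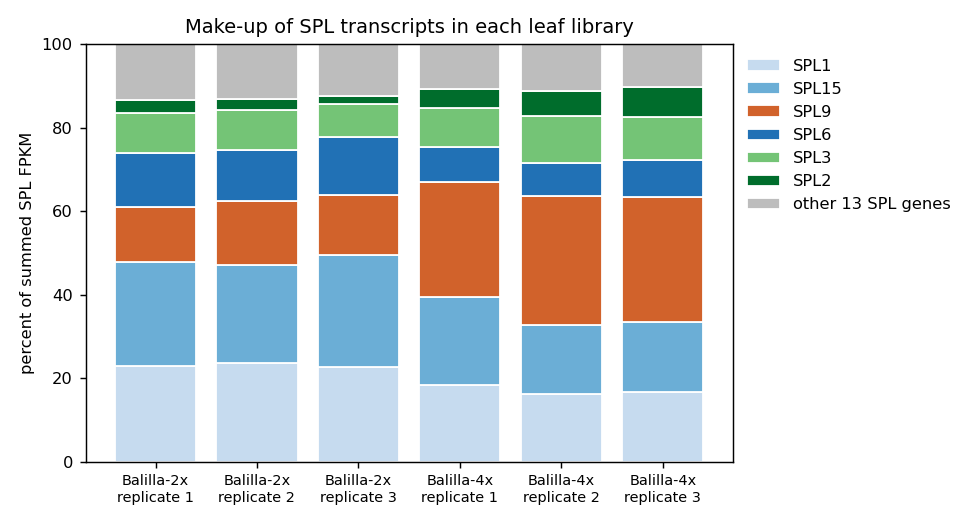
Share of each SPL gene in the summed FPKM of the family (vertical axis, percent) in each of the 6 leaf libraries (bars). SPL9, in orange, takes 13.2% to 15.3% in Balilla-2x and 27.7% to 30.9% in Balilla-4x, while SPL1, SPL15 and SPL6 take smaller shares in each Balilla-4x library than in any Balilla-2x library.

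SPL15, SPL6 and SPL1 had the longest models among the SPL genes with reads (4558, 3926 and 3797 bases) and were not called. SPL9, which was called, came next at 3045 bases. SPL1 (chromosome 1) was at 191, 191 and 185 CPM in Balilla-2x and 200.3, 172 and 173 CPM in Balilla-4x, and the lines overlapped. Its fold change was 0.962 with a 95% interval of 0.823 to 1.12 (edgeR adjusted p = 0.709). SPL15 (chromosome 8) was at 248, 228 and 264 CPM in Balilla-2x and 273, 208 and 209.5 CPM in Balilla-4x, and Balilla-4x replicate 1 was the highest of all 6 libraries. Its fold change was 0.934 with an interval of 0.760 to 1.15 (edgeR adjusted p = 0.612).

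SPL6, which in rice restrains cell death under endoplasmic reticulum stress in the panicle, lies on chromosome 3. It was at 109.5, 102 and 117.5 CPM in Balilla-2x and 92.0, 86.9 and 95.6 CPM in Balilla-4x. Each tetraploid library was below each diploid library, but the difference did not pass the adjusted threshold (fold 0.834, 95% interval 0.719 to 0.967, edgeR adjusted p = 0.0706). The other members without a site were scarce in these leaves. SPL8 (LIGULELESS1), which forms the ligule at the leaf base, had 26, 28 and 30 counts in Balilla-2x and 16, 46 and 10 in Balilla-4x. The diploid libraries were close together and the tetraploid ones spread around them, so its fold of 0.858 had a wide interval, from 0.371 to 1.98 (edgeR adjusted p = 0.787). SPL5 and SPL10, the latter a gene for leaf hairs, had 0 counts in all 6 libraries.

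**Figure D3:**
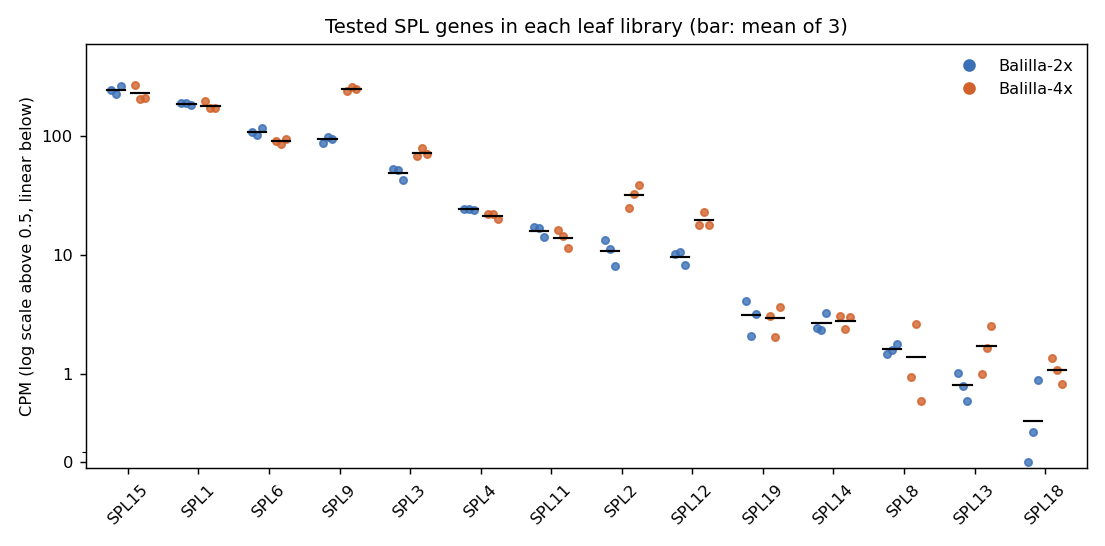
CPM of the 14 tested SPL genes (log scale above 0.5, linear below) in the 3 Balilla-2x and 3 Balilla-4x libraries, with bars at the mean of a line. SPL9, SPL3, SPL2 and SPL12 have every Balilla-4x library above every Balilla-2x library, and SPL6 and SPL4 have every Balilla-4x library below.

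Of the 11 SPL genes known to carry a microRNA156 site, 8 were tested, 3 rose and 0 fell, or 37.5% called against 26.1% of all tested genes (12.4% higher). Of the genes known without a site, 1 of 5 tested was called (20%). The lines did not overlap in 50% of the tested carriers and 40% of the tested genes without a site, against 44.3% of all tested genes. With so few genes, these shares are not a result about the carriers. This grouping follows the literature on the family, and no site was checked in sequence here. The risers among the carriers were SPL2, SPL3 and SPL12. SPL2 lies on chromosome 1 (LOC_Os01g69830) and was at 13.3, 11.3 and 8.07 CPM in Balilla-2x and 24.97, 32.4 and 39.2 CPM in Balilla-4x. The lowest tetraploid library stood above the highest diploid library, although libraries varied within both lines, with a coefficient of variation of 24.2% and 22.1%. Its fold change of 2.96 was the largest among the SPL genes that were called (log2 1.56, SE 0.22, 95% interval 1.07 to 2.06, edgeR adjusted p = 0.00159).

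SPL3 and SPL12 are close copies of each other, and SPL3 in rice acts in crown root development. SPL3 (chromosome 2, LOC_Os02g04680) was at 53.5, 51.6 and 42.7 CPM in Balilla-2x and 68.9, 79.0 and 70.99 CPM in Balilla-4x. SPL12 (chromosome 6, LOC_Os06g49010) was at 10.1, 10.6 and 8.30 CPM in Balilla-2x and 17.9, 23.0 and 17.9 CPM in Balilla-4x. In both genes the lines did not overlap, and Balilla-2x replicate 3 was the lowest and Balilla-4x replicate 2 the highest library. SPL3 rose 1.48-fold (log2 0.57, SE 0.11, edgeR adjusted p = 0.00778) and SPL12 2.03-fold (log2 1.02, SE 0.16, edgeR adjusted p = 0.00285). The ratio of SPL3 to SPL12 in FPKM was 5.74 to 6.23 in Balilla-2x libraries and 4.04 to 4.68 in Balilla-4x libraries, so the scarcer copy gained more. How the authors' counting divided reads shared by such copies is not given in the sources used here.

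SPL4 and SPL11 form another pair of close copies with a microRNA156 site, and they did not move with SPL3 and SPL12. SPL4 (chromosome 2) was at 24.4, 24.6 and 24.1 CPM in Balilla-2x and 22.3, 21.95 and 20.3 CPM in Balilla-4x. All tetraploid libraries were below the diploid ones by a small margin (fold 0.882, 95% interval 0.752 to 1.03, edgeR adjusted p = 0.220). SPL11 (chromosome 6) was at 17.3, 16.9 and 14.1 CPM in Balilla-2x and 16.1, 14.4 and 11.6 CPM in Balilla-4x, with overlapping lines (fold 0.872, 95% interval 0.679 to 1.12, edgeR adjusted p = 0.390). The ratio of SPL4 to SPL11 in FPKM spanned 0.722 to 0.873 in Balilla-2x and 0.705 to 0.894 in Balilla-4x, the same range within the spread. The ratio of SPL3 to SPL4 was 2.04 to 2.53 in Balilla-2x and 3.57 to 4.15 in Balilla-4x, and that of SPL2 to SPL4 was 0.489 to 0.796 and 1.64 to 2.83, so the carriers of the site changed unequally.

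SPL7, SPL13, SPL14, SPL16, SPL17 and SPL18, which are known for tiller number or for grain size and shape, were scarce in these leaves. None of them was called. SPL14 (IPA1, chromosome 8), which lowers tiller number and increases panicle branching, had 43, 41 and 55 counts in Balilla-2x and 52, 42 and 51 in Balilla-4x. The lines overlapped almost completely, at 2.67 ± 0.512 and 2.80 ± 0.362 CPM (SD, n = 3 per line). Its fold change was 1.05 with a 95% interval of 0.676 to 1.63 (edgeR adjusted p = 0.878), so a change of the size seen for SPL12 lies outside the interval. SPL17, its close copy with a role in tillering, had 0, 2 and 0 counts in Balilla-2x and 0, 5 and 3 in Balilla-4x. SPL7, also a tillering gene, had 2 counts in each line, all in replicate 3. SPL14 was the only member of this trio with more than 5 counts in any library.

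SPL13 (GLW7, chromosome 7), a gene for grain length, had 18, 14 and 10 counts in Balilla-2x and 17, 29 and 43 in Balilla-4x. Balilla-4x replicate 1 lay within the diploid range and the others above it, with a fold of 2.13 that was not called (95% interval 1.05 to 4.32, edgeR adjusted p = 0.108). Without Balilla-4x replicate 1 it was called, with a log2 fold change of 1.36 (edgeR adjusted p = 0.0485). That was 1 of 13 alternatives, and the other 12 did not call it. Without Balilla-4x replicate 3 the log2 fold change was 0.72 (edgeR adjusted p = 0.358). Over all genes, leaving out Balilla-4x replicate 1 gave 6600 calls of 21521, against 5481 of 20976 with all 6 libraries. SPL16 (GW8, chromosome 8), which sets grain width, had 2, 5 and 1 counts in Balilla-2x and 8, 8 and 5 in Balilla-4x and did not pass the filter. On the unfiltered table its edgeR adjusted p was 0.365. SPL18 (chromosome 9), which acts on grain size and number, had 0, 5 and 15 counts in Balilla-2x and 23, 19 and 14 in Balilla-4x. Balilla-2x replicate 3 reached the tetraploid range, and the fold of 2.76 had a log2 of 1.47 with an interval from -0.39 to 3.32 (edgeR adjusted p = 0.217). Only 1 Balilla-2x library but all 3 Balilla-4x libraries reached the filter's minimum. SPL18 thus entered the test through the line where its mean was higher.

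SPL19 (chromosome 11), which was assigned neither to the carriers of a microRNA156 site nor to the others, had 72, 37 and 54 counts in Balilla-2x and 52, 36 and 63 in Balilla-4x (fold 0.935, 95% interval 0.543 to 1.61, edgeR adjusted p = 0.858). Summed over the 11 carriers of a site, FPKM was 49.0 ± 4.39 in Balilla-2x and 73.9 ± 4.85 in Balilla-4x (SD, n = 3 per line). Summed over the 7 genes without a site it was 160.0 ± 5.34 and 208.6 ± 10.7 FPKM, and without SPL9 129.7 ± 5.45 and 124.7 ± 12.5 FPKM (SD, n = 3 per line). The difference in the latter group was thus carried by SPL9, while SPL3, SPL2 and SPL12 supplied that of the carriers.

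GRF transcripts were far scarcer than SPL transcripts in these leaves, and 1 of 5 tested GRF genes was called (20%, against 26.1% of all tested genes). The 12 GRF genes summed to 24.1 ± 0.957 FPKM in Balilla-2x and 31.8 ± 4.10 FPKM in Balilla-4x (SD, n = 3 per line), against 211 ± 2.38 and 285 ± 8.94 FPKM for the 19 SPL genes. In CPM, scaled between libraries, the sums were 40.5 ± 1.44 and 51.5 ± 6.58 for GRF genes. For SPL genes they were 758.6 ± 14.7 and 925 ± 36.4 CPM. GRF11 (chromosome 7, LOC_Os07g28430) alone supplied 72.5% to 80.1% of the summed GRF FPKM in each library. It had 547, 552 and 458 counts in Balilla-2x and 533, 722 and 669 in Balilla-4x. In CPM, Balilla-4x replicate 1 (31.2) lay at the level of the diploid libraries (27.2 to 31.3), and the other tetraploid libraries (41.1 and 39.1) lay above them. The fold of 1.24 was not called (95% interval 1.02 to 1.52, edgeR adjusted p = 0.102). Without Balilla-4x replicate 1 the log2 fold change was 0.42 and GRF11 was called (edgeR adjusted p = 0.0215). In that setting 6600 of 21521 genes were called, against 5481 of 20976 with all 6 libraries. The other 12 of 13 alternatives did not call GRF11, with an edgeR adjusted p up to 0.278 (without Balilla-2x replicate 3).

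**Figure D4:**
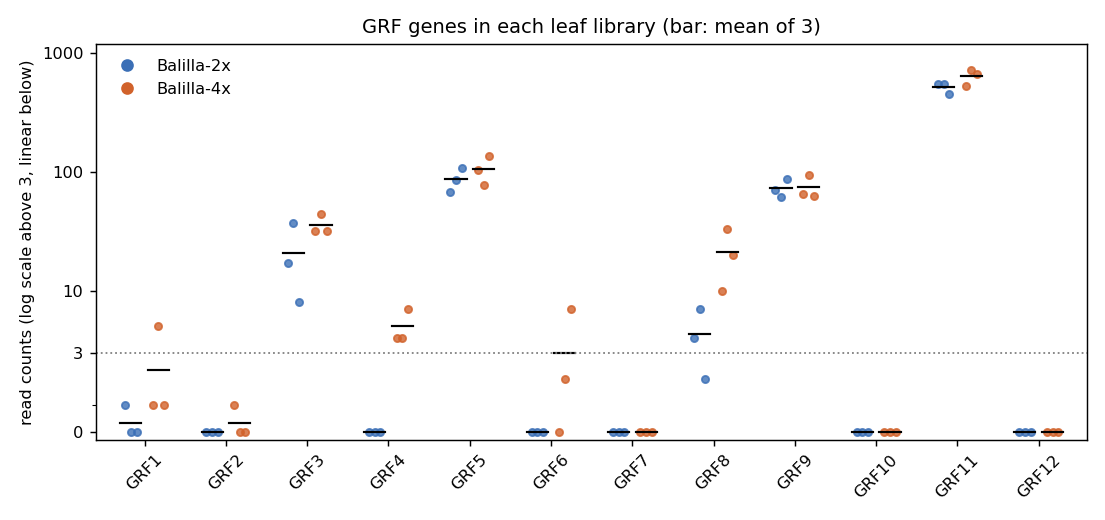
Read counts of the 12 GRF genes (log scale above 3, linear below) in the 3 libraries of each line, with bars at the mean and a dotted line at 3 counts. GRF11 leads with 458 to 722 counts, GRF4 is above 3 counts in each Balilla-4x library and at 0 in each Balilla-2x library, and GRF7, GRF10 and GRF12 are at 0 throughout.

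GRF8, which in rice acts in resistance to the brown planthopper through flavonoids, rose from a very low level. It lies on chromosome 11 (LOC_Os11g35030) and had 4, 7 and 2 counts in Balilla-2x and 10, 33 and 20 in Balilla-4x. The lines did not overlap, but the tetraploid libraries themselves ranged from 0.586 to 1.88 CPM. The fold change was 4.77 (log2 2.25, SE 0.62, 95% interval 0.85 to 3.65, edgeR adjusted p = 0.0282). No Balilla-2x library reached the filter's minimum and each Balilla-4x library did, so the gene entered the test only through the line where it was higher. The call was lost when Balilla-2x replicate 1 or 3 or Balilla-4x replicate 2 or 3 was left out (edgeR adjusted p = 0.0746 to 0.117), with log2 fold changes of 1.80 to 2.28, and with limma on log2 of FPKM plus 1 (log2 0.43, adjusted p = 0.0735). Its close copy GRF7, a gene for leaf angle, had 0 counts in all libraries.

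GRF4 (GS2, chromosome 2), which enlarges grains and promotes nitrogen uptake, had 4, 4 and 7 counts in the tetraploid libraries and was not read in any diploid library (0, 0 and 0). The tetraploid mean was 1.68-fold a floor of 3 counts per library. That ratio leaves out the counting error of the tetraploid counts and is not a lower bound on the change. GRF4 did not pass the filter, and on the unfiltered table its edgeR adjusted p was 0.0501. GRF6 (chromosome 3), which promotes panicle branching, was not read in the diploid and had 0, 2 and 7 counts in the tetraploid libraries (edgeR on the unfiltered table, adjusted p = 0.162). GRF1, known in deepwater rice as induced by gibberellin in the growing stem, had 1 count over Balilla-2x and 7 over Balilla-4x, and GRF2 had 1 count in all. At this depth a difference in GRF1, GRF2 or GRF6 was not detectable.

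The remaining GRF genes with reads did not pass the test. GRF3 (chromosome 4), which represses KNOX meristem genes, had 17, 37 and 8 counts in Balilla-2x and 32, 44 and 32 in Balilla-4x (fold 1.76, 95% interval 0.796 to 3.89, edgeR adjusted p = 0.265). Balilla-2x replicate 2 lay within the tetraploid range and the other diploid libraries below it. GRF5 (chromosome 6) averaged 5.04 ± 1.28 CPM in the diploid and 6.14 ± 1.75 CPM in the tetraploid (SD, n = 3, edgeR adjusted p = 0.489), with overlapping libraries. GRF9 (chromosome 3) averaged 4.21 ± 0.851 and 4.30 ± 0.959 CPM (SD, n = 3, edgeR adjusted p = 0.946). GRF10, which represses KNOX genes together with GRF3, and GRF12 had 0 counts in every library.

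The genes around the members on their chromosomes were also compared between the lines. Of the 10 tested genes nearest to a tested member, 5 on each side by locus order, between 0 and 5 were called, against 26.1% of all tested genes. Around SPL9 1 of 10 was called, around SPL3 0, around SPL2 2 and around SPL12 2, and the median log2 fold change of these neighbours was 0.06, 0.08, -0.12 and 0.28. Around GRF8 5 of 10 neighbours were called with a median of 0.71. The same number, 5, was called around SPL6, SPL18 and SPL19, which were not called themselves, with medians of 0.27, 0.50 and 0.37. Some members with close locus numbers differed widely in level. SPL14 (locus number 39890) was at 1.595 FPKM and SPL15 (40260), also on chromosome 8, at 52.2 FPKM (means of 6 libraries). On chromosome 9, SPL17 (31438) was at 0.0656 and SPL18 (32944) at 0.524 FPKM. Both lay near the low end of the family, but only SPL18 was tested, having reached the filter's minimum in 3 Balilla-4x libraries and 1 Balilla-2x library.

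**Figure D5:**
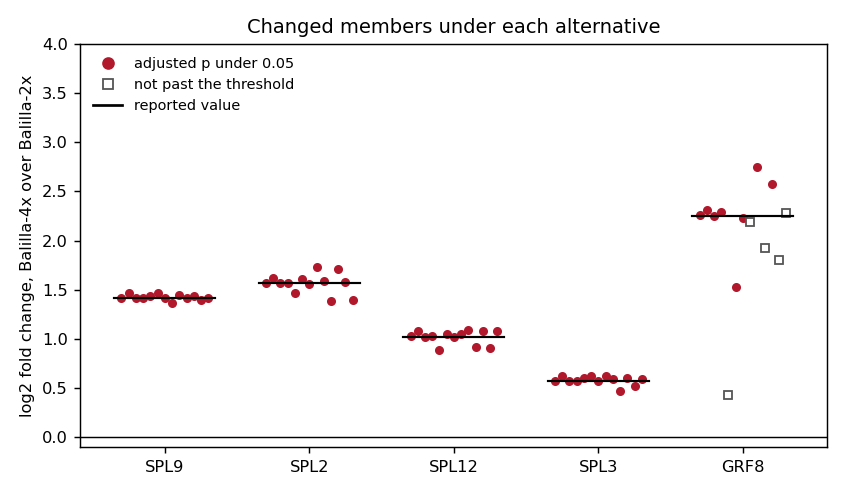
Log2 fold change, Balilla-4x over Balilla-2x, of the 5 called members in each of 13 alternative analyses (points), with a line at the reported value. SPL9, SPL2, SPL12 and SPL3 stay past the threshold in all 13, and GRF8 ranges from 0.43 to 2.75 with 5 points not past it.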

How the data were processed

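RNA from leaves of 2 rice lines was sequenced in 3 libraries per line. Per the file headers, the authors deposited a gene table of raw read counts covering all 6 libraries and separate tables of FPKM values. The submitters' processing notes name HISAT2 2.1.0 as a tool. Which program counted the reads, on which build and annotation and with or without strand, is not given in the sources used here. Gene lengths were taken from the ratio of count to FPKM. Members were found by identifier. Of the 31 names, 25 are aliases on the same chromosome in NCBI RefSeq (ASM3414082v1). The members, their groups and the named genes, which are all members, were chosen with earlier results of these data known. The planned lists of pathway partners and leaf markers were not used, since no table pairs their identifiers with names.

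Counts were analysed over the whole table in R 4.3.3 with edgeR 4.0.16 (filterByExpr with a minimum count of 10, TMM, quasi-likelihood F test, two-sided, Benjamini-Hochberg over 20976 genes, threshold 0.05). Standard errors and 95% intervals come from that fit. DESeq2 1.42.0 and limma 3.58.1 on log2 of FPKM plus 1 or 0.1 were alternatives, and the test was checked on simulated data. The simulation gave all genes the same relative spread and placed changes only in genes with an expected count of at least 10. It does not cover a gene as scarce as GRF8 was in Balilla-2x. Library totals of 16738447 to 18106962 counts set the precision, and floors of 3 counts cover counting error only. No pair of libraries of a line agreed within sampling noise (chi-square per degree of freedom at least 8.83).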

Additional observations from a re-analysis of the deposited data

How the results depend on the processing

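SPL2, SPL3, SPL9 and SPL12 stayed higher and past the threshold in all 13 alternatives run (52 results, smallest fold 1.38, adjusted p up to 0.0368 in edgeR, DESeq2 or limma). The count of changed SPL genes was 4 to 5 with a library left out and 4 in the other alternatives. It was 5 without Balilla-4x replicate 1, where calls over all genes were also most numerous (6600 of 21521). The fewest calls over all genes came without Balilla-4x replicate 2 (3029 of 21371). The count of changed GRF genes, reported as 1, was 0 with limma on log2 of FPKM plus 1, where the added value shrinks the fold of GRF8 to a log2 of 0.43, and 0 to 2 with a library left out. It was 0 without Balilla-2x replicate 1 or 3 and without Balilla-4x replicate 2 or 3, and 2 without Balilla-4x replicate 1. Among members that were not called, the sign turned in 8 results. These were SPL1 with library totals (log2 0.0035), and, with a library left out, SPL8 (range -1.06 to 0.14), SPL14 (-0.028 to 0.23), SPL19 (-0.32 to 0.14, turned in 2 results) and GRF9 (-0.15 to 0.19, turned in 3). The cause was not tested. With library totals the median of all tested genes was 0.07 against 0.01 (log2). What a shared replicate number stands for is not labelled. Between libraries with the same number, deviations from the line means correlated at 0.0019, -0.02 and -0.04 across genes. With the replicate number as a block, 4 SPL genes and 1 GRF gene changed. Over all genes 4617 were called with the block against 5481 without it.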
